A study of Mus musculus with 10 samples.

Results

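Matrix proteases and their inhibitors were followed in the gastrocnemius, a calf muscle, of mice that lost myostatin as adults. The members are 7 genes of 18194 named by probe sets with 1 gene symbol: the matrix metalloproteinases Mmp2 and Mmp14, the tissue inhibitors of metalloproteinases Timp1, Timp2 and Timp3, and the aggrecanases Adamts1 and Adamts5. Every probe set annotated to 1 of these symbols alone was taken, 21 of 45101 in all. The genes were chosen with the difference between knockout and control arrays already known, so that difference is given for them as a description, and no p is given for a single member.

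The knockout mice, named Floxed_Mstn by the labels, had floxed myostatin genes, and the control mice, named WT_Mstn, had normal ones (5 male mice each, C57BL/6 background, aged 7.5 months). All 10 mice, controls included, carried the CAGG-CreER transgene, a Cre recombinase that tamoxifen activates under a broadly active promoter, and all received 8 tamoxifen injections from 4 months of age. That promoter does not restrict Cre to muscle fibres. The comparison asks what differs in mature muscle once myostatin, a secreted brake on muscle growth, has been removed after development. The myostatin transcript was not analysed here, and the genotype of each mouse rests on its label.

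Matrix metalloproteinases are zinc enzymes that cut collagen, gelatin and other matrix proteins outside the cell, and they are made as inactive precursors. Mmp14, anchored in the cell membrane, activates the Mmp2 precursor on the cell surface with the help of Timp2, although Timps otherwise block metalloproteinases. Adamts1 and Adamts5 are secreted relatives that cut proteoglycans such as versican and aggrecan, and Timp3, which binds to the matrix, inhibits them. In skeletal muscle these genes are expressed largely by the fibroblasts, vessel cells and leukocytes between the fibres, and they take part in matrix turnover during growth and repair.

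A mean log2 intensity of 4 over the 10 arrays was used as the filter on dim probe sets, which 21154 passed; single arrays had 46.5% to 47.6% of probe sets at this level. Arrays carry no read depth, so the number of mice limits the precision. All 10 fibre markers used to check the tissue (among them Ckm, Acta1 and Myh4) were detected, at a mean log2 level of 15.15 to 15.21 in knockout and 15.12 to 15.20 in control arrays. The hybridisation controls, bacterial RNA added to each array, averaged 13.15 ± 0.25 in knockout and 13.12 ± 0.14 in control arrays (log2, SD, n = 5 each). The relation of the detected members to these controls is given after their values.

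Of the 7 members, 5 had at least 1 probe set that passed the filter: Mmp2, Timp2, Timp3, Adamts1 and Adamts5, with 14 probe sets. The other 7 probe sets did not pass, and they include every probe set of Mmp14 and Timp1. All 14 kept probe sets had a lower mean in knockout muscle, where 50.8% of all kept probe sets did. Their median difference was -0.27 (log2, knockout minus control), against -0.0029 over all kept probe sets. None of the 14 passed an adjusted p of 0.05 in limma over all probe sets, where 0.0993% of probe sets passed (0.0473% with lower values), and 5 had an unadjusted p under 0.05, where 7.69% of probe sets did. The 2 groups did not overlap for 2 member probe sets, both of Adamts5 and both lower in knockouts, where 0.893% of all kept probe sets were lower without overlap and 2.06% had no overlap in either direction. Because the members were chosen on this contrast, nothing is read from these counts.

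**Figure D1:**
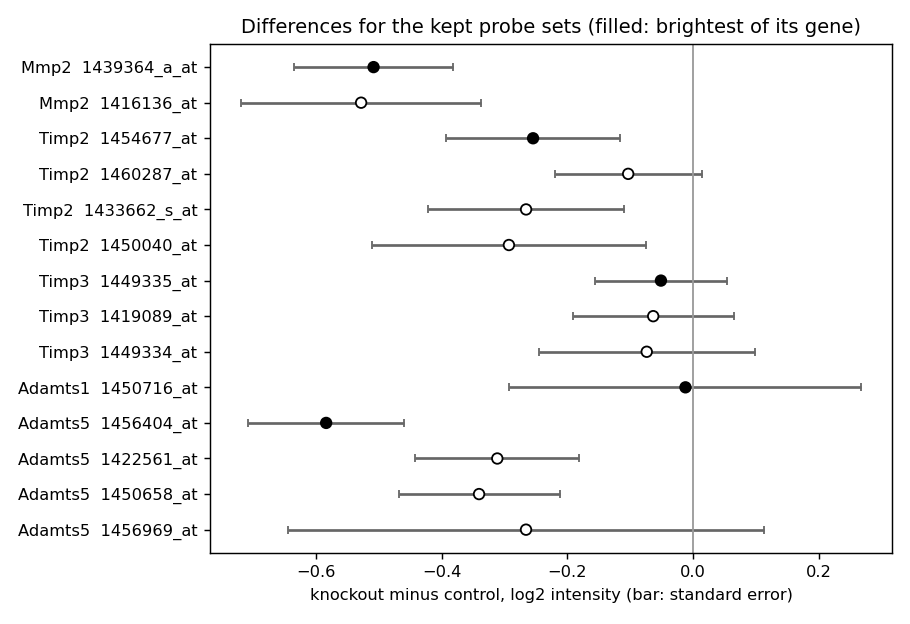
Difference between knockout and control means (log2 intensity, horizontal axis) for the 14 kept probe sets, with the standard error from the limma fit as bars. Both Mmp2 probe sets lie near -0.51 and -0.53, the brightest Adamts5 probe set at -0.58, and the 3 Timp3 probe sets between -0.05 and -0.07.

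Promoter sequence was taken from RefSeq (GRCm38.p6) for the detected members that its table lists, Timp2, Timp3 and Adamts1. A link between these letters and how the genes varied between mice was not tested. The table matched 5 of the 7 members (Mmp14, Timp1, Timp2, Timp3 and Adamts1). Each line gives the 250 bases before the gene's start, 5′ to 3′ in the direction of the gene, with motif matches in capitals.
Timp2 (chr11:118355412-118355661, minus strand): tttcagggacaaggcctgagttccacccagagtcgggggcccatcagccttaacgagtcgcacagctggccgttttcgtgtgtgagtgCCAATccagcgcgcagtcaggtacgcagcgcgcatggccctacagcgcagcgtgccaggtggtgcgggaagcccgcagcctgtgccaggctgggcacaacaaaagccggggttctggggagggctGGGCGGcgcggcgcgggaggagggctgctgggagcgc
Timp3 (chr10:86300162-86300411, plus strand): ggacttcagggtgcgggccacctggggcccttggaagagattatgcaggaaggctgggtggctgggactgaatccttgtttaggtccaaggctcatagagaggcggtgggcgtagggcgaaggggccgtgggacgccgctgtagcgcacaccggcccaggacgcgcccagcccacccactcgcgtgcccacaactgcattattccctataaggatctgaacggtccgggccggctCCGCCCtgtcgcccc
Adamts1 (chr16:85803114-85803363, minus strand): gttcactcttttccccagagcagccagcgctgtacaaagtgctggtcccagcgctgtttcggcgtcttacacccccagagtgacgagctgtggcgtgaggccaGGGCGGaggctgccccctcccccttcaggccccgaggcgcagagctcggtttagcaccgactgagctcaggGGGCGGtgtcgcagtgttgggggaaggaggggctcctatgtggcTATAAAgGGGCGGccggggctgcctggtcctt
The capitals mark the GC box GGGCGG, the TATA box TATAAA and the CCAAT box CCAAT, each searched on both strands, so that CCGCCC is a GC box on the opposite strand. Timp2 held 1 GC box, 37 bases before the start, and 1 CCAAT box, 162 bases before it. Timp3 held 1 GC box, on the opposite strand and 15 bases before the start. Adamts1 held 3 GC boxes, at 147, 76 and 25 bases, and the only TATA box among the 5 matched members, 32 bases before the start. GC boxes were present in 32.7% of all 32851 promoter windows of the same length, CCAAT boxes in 33.8% and TATA boxes in 12.4%. The AP-1 element TGANTCA (in 6.75% of windows) and the Smad element CAGACA (in 17.1%) had no match in the windows of the 5 members. A match is a run of letters and not a measured binding site.

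Mmp2, the gelatinase that degrades denatured collagen and basement membrane collagen, had lower values in knockout muscle on both of its probe sets. Its brighter probe set, 1439364_a_at, read 9.62, 9.86, 9.84, 9.82 and 10.17 (log2 intensity) in knockout mice 1 to 5, against 10.47, 10.29, 10.25, 10.16 and 10.68 in control mice 1 to 5. All knockout mice but number 5 lay below every control, and knockout 5 lay just above the lowest control. The means were 9.86 ± 0.20 in knockouts and 10.37 ± 0.21 in controls (SD, n = 5 each), a difference of -0.51 ± 0.13 (log2, SE) or 70.3% of the control level. The other probe set, 1416136_at, read 8.34, 8.65, 8.16, 8.86 and 9.13 in knockout mice, against 9.13, 9.24, 9.20, 8.78 and 9.43 in control mice. These groups overlapped through control 4, with knockout 5 also level with control 1, and the difference was -0.53 ± 0.19 (log2, SE). Knockout 5 was the highest of its group and control 5 the highest of its own on both probe sets.

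Mmp14, the membrane-anchored activator of the Mmp2 precursor, was not above the filter level in any mouse on any of its 3 probe sets. Probe set 1448383_at read 2.86 to 3.45 in knockout mice and 3.25 to 3.92 in control mice (log2 intensity). Probe set 1440920_at read 2.40 to 2.42 in knockout mice, and in control mice 2.40 to 2.41 with control 5 apart at 2.91. Probe set 1416572_at stayed between 2.26 and 2.29 in knockout and between 2.26 and 2.33 in control mice. Values this close to the floor of the background correction have no order, so no fold is given and a difference in Mmp14 was not detectable with these probe sets.

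Timp1, a secreted inhibitor that is often induced in injured tissue, had 1 probe set, 1460227_at, also below the filter level on average. It read 3.30, 2.41, 3.10, 3.34 and 3.43 in knockout mice, against 3.58, 4.53, 3.28, 3.58 and 3.63 in control mice (log2 intensity). Only control 2 exceeded 4, and knockout 2 was the lowest of all. The groups overlapped through control 3. No fold is given for these values.

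**Figure D2:**
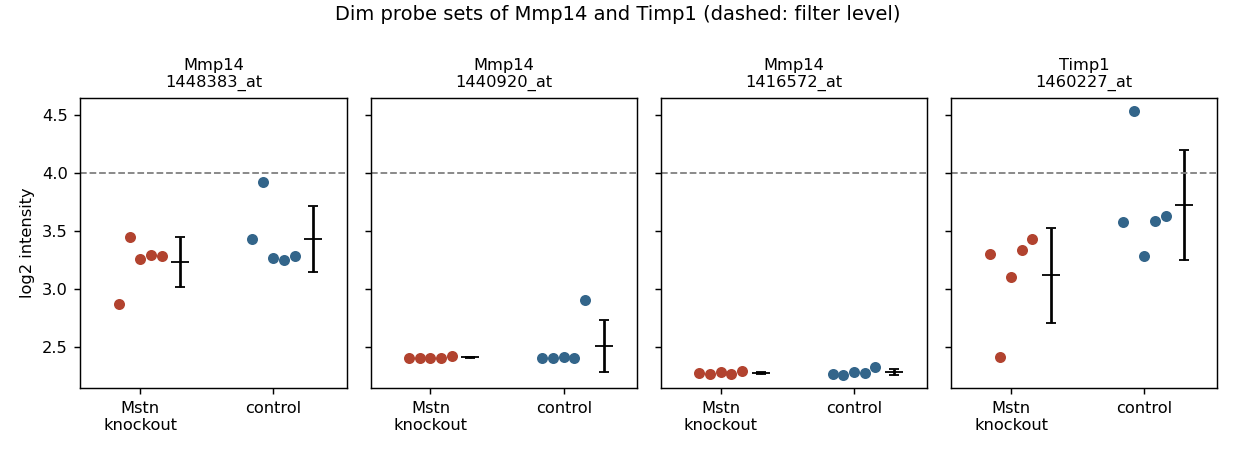
Log2 intensity (vertical axis) of the 3 Mmp14 probe sets and the Timp1 probe set in each mouse, knockouts left of controls, with the group mean and SD (n = 5 each) as black bars. All points except that of control 2 for Timp1 lie below the dashed filter level of 4.

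Timp2, the inhibitor that also bridges Mmp14 and the Mmp2 precursor, had 4 kept probe sets, and each had a somewhat lower knockout mean with overlapping groups. The brightest, 1454677_at, read 11.29, 11.08, 10.76, 11.24 and 11.38 (log2 intensity) in knockout mice, against 11.63, 11.12, 11.39, 11.30 and 11.58 in control mice. Knockout 3 was the lowest of all 10, and controls 2 and 4 lay among the knockouts. The means were 11.15 ± 0.24 in knockouts and 11.40 ± 0.21 in controls (SD, n = 5 each), a difference of -0.25 ± 0.14 (log2, SE). The difference became -0.16 without knockout 3.

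The other kept Timp2 probe sets differed by -0.10 ± 0.12 (1460287_at), -0.27 ± 0.16 (1433662_s_at) and -0.29 ± 0.22 (1450040_at) on the same scale (SE). Knockout 3 was again the lowest mouse on 1433662_s_at (8.75) and 1450040_at (6.33). Another 2 Timp2 probe sets, 1437081_at and 1420924_at, lay at the floor in every mouse, between 2.31 and 2.35 and between 2.08 and 2.10.

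Timp3, the matrix-bound inhibitor of Adamts enzymes, had almost equal means in both groups on its 3 kept probe sets. Probe set 1449335_at read 11.06, 10.99, 10.87, 11.08 and 11.30 (log2 intensity) in knockout mice, against 11.30, 10.92, 11.02, 11.04 and 11.27 in control mice. The groups spanned nearly the same range, with means of 11.06 ± 0.16 in knockouts and 11.11 ± 0.17 in controls (SD, n = 5 each). The difference was -0.05 ± 0.10 (log2, SE), and it was -0.06 ± 0.13 for 1419089_at and -0.07 ± 0.17 for 1449334_at. The fourth probe set, 1419088_at, lay below the filter level at 2.61 to 3.64 in knockout and 2.71 to 3.05 in control mice.

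Adamts5, the main aggrecanase of cartilage in the mouse and also a versican-cutting enzyme, had the largest difference among the brightest probe sets of the 5 detected members. Its brightest probe set, 1456404_at, read 8.65, 8.39, 8.21, 8.90 and 8.61 (log2 intensity) in knockout mice, against 9.14, 9.03, 9.15, 9.07 and 9.30 in control mice. Every knockout lay below every control, and the knockouts were the more spread group. The means were 8.55 ± 0.26 in knockouts and 9.14 ± 0.10 in controls (SD, n = 5 each), a difference of -0.58 ± 0.12 (log2, SE) or 66.7% of the control level.

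The remaining Adamts5 probe sets gave smaller differences of the same sign. Probe set 1450658_at read 7.46, 7.46, 7.46, 6.96 and 7.10 in knockout mice, against 7.59, 7.47, 7.74, 7.48 and 7.86 in control mice, a difference of -0.34 ± 0.13 (log2, SE). Its groups did not overlap, but knockouts 1, 2 and 3 lay almost level with controls 2 and 4. Probe set 1422561_at differed by -0.31 ± 0.13 with overlapping groups. Probe set 1456969_at was dim and variable, at 4.07 to 5.46 in knockout and 4.25 to 6.01 in control mice, with a difference of -0.27 ± 0.38. The mean over the 4 probe sets gave -0.38.

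Adamts1, a relative that also limits the growth of blood vessels, did not follow Adamts5, although no other protein-coding gene lies between them in the GRCm38.p6 gene order of chromosome 16. Its only probe set, 1450716_at, read 8.02, 8.18, 8.30, 8.19 and 8.15 (log2 intensity) in knockout mice, against 8.62, 8.32, 7.02, 8.22 and 8.70 in control mice. Knockouts lay close together, while control 3 lay far below all other mice. The means were 8.17 ± 0.10 in knockouts and 8.18 ± 0.68 in controls (SD, n = 5 each), a difference of -0.01 ± 0.28 (log2, SE). Without control 3 the difference was -0.30, so 1 mouse decides whether the means differ.

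**Figure D3:**
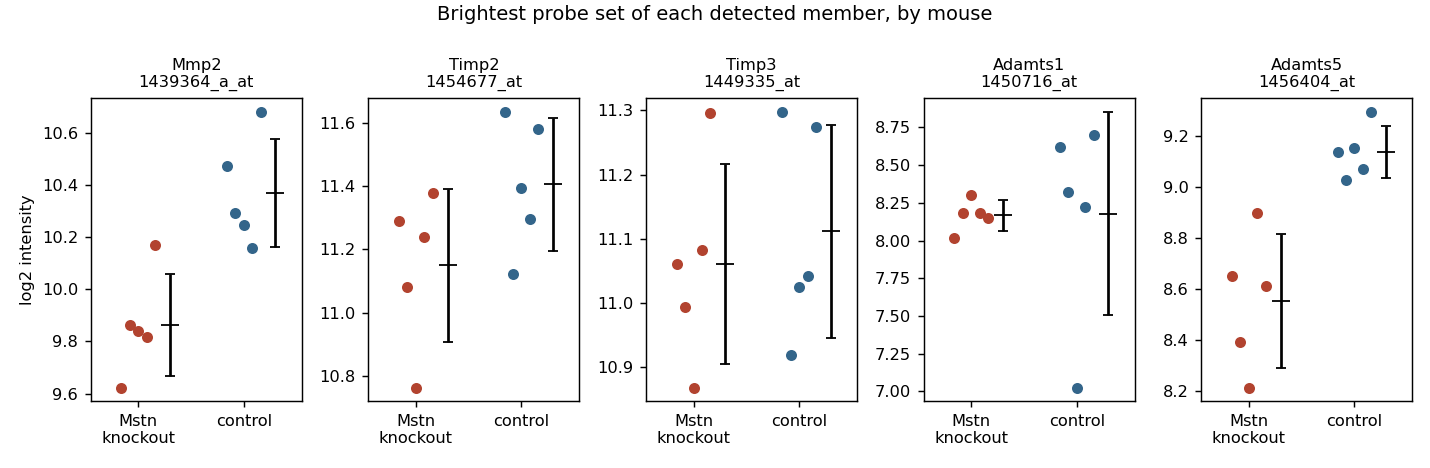
Log2 intensity (vertical axis, a separate scale for each panel) of the brightest probe set of each detected member in every mouse, knockouts left of controls, with the group mean and SD (n = 5 each) as black bars. Groups are apart for Adamts5, nearly apart for Mmp2 and overlapping for Timp2, Timp3 and Adamts1, where control 3 lies at 7.02.

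Relations within the groups do not use the contrast by which the genes were chosen. Each mouse's deviation from its own group mean was compared between the 5 detected members, and between them and the mean of the markers of fibroblasts, macrophages, smooth muscle and pericytes, and endothelium (30 relations over 10 mice, exact permutation within groups, two-sided, Benjamini-Hochberg adjusted). Timp2 and Timp3 varied together, with Pearson's r of 0.921 (permutation p = 0.000764, adjusted p = 0.00573) and Spearman's rho of 0.927 (permutation p = 0.00111, adjusted p = 0.00833). Without the 2 mice farthest from the median of Timp2, r was 0.904. No other pair of members passed the adjusted threshold. The next were Timp2 with Adamts5 (r = 0.743, rho = 0.673, permutation p = 0.0205 and 0.0440, adjusted p = 0.0878 and 0.189, and r of 0.471 without 2 mice) and Mmp2 with Timp3 (r = 0.709, rho = 0.588, permutation p = 0.0379 and 0.103, adjusted p = 0.119 and 0.265, and r of 0.323 without 2 mice).

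Timp2 followed the fibroblast markers, with r of 0.954 (permutation p = 0.000139, adjusted p = 0.00313) and rho of 0.915 (permutation p = 0.000833, adjusted p = 0.00833). It followed the macrophage markers equally closely, with r of 0.957 (permutation p = 0.000208, adjusted p = 0.00313) and rho of 0.964 (permutation p = 0.000208, adjusted p = 0.00521). Without the 2 mice farthest from the median of Timp2 these were 0.875 and 0.947. Timp3 followed the macrophage markers, with r of 0.911 (permutation p = 0.000625, adjusted p = 0.00573) and rho of 0.939 (permutation p = 0.000347, adjusted p = 0.00521), and r of 0.878 without 2 mice. For Timp3 and the fibroblast markers r was 0.844 (permutation p = 0.00556, adjusted p = 0.0333), but rho was 0.794 (permutation p = 0.00958) with an adjusted p of 0.0575, and r was 0.760 without 2 mice. The fibroblast and macrophage means themselves varied together (r = 0.944 over the 10 mice), so the 2 cell types cannot be told apart by these relations.

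Adamts5 followed the macrophage markers by r (0.830, permutation p = 0.00903, adjusted p = 0.0451) but not by rho (0.745, permutation p = 0.0330, adjusted p = 0.165), and r was 0.809 without 2 mice. Its r with the fibroblast markers was 0.741 (rho 0.624, permutation p = 0.0395 and 0.106, adjusted p = 0.119 and 0.265). Mmp2 did not pass with any of the 4 marker means, the highest being smooth muscle and pericytes (r = 0.702, rho = 0.624, permutation p = 0.0348 and 0.0781, adjusted p = 0.119 and 0.234). Adamts1 did not pass either, the highest being endothelium (r = 0.735, rho = 0.612, permutation p = 0.0444 and 0.0727, adjusted p = 0.121 and 0.234, and r of 0.373 without 2 mice). With the hybridisation controls regressed out, r stayed at 0.904 for Timp2 with Timp3, and at 0.945 for Timp2 with fibroblast markers and 0.944 with macrophage markers. Timp3 kept its calls with macrophage markers (r = 0.869, exact permutation, adjusted p = 0.0109) and fibroblast markers (r = 0.818, adjusted p = 0.0367), while Adamts5 with macrophage markers lost its call (r = 0.820, adjusted p = 0.0549).

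Leaving out each mouse in turn kept Timp2 past the threshold with both marker means in all 10 cases. Timp2 with Timp3 kept r between 0.898 and 0.950 and lost its call only without control 2 (adjusted p = 0.05, at the threshold). Timp3 with macrophage markers lost its call without knockout 3 (adjusted p = 0.0651). Timp3 with fibroblast markers passed in 6 of 10 cases, lost without knockouts 2, 3 or 5 or control 2, and Adamts5 with macrophage markers passed in 3 of 10, lost without knockouts 1, 2 or 3 or controls 2, 3, 4 or 5.

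**Figure D4:**
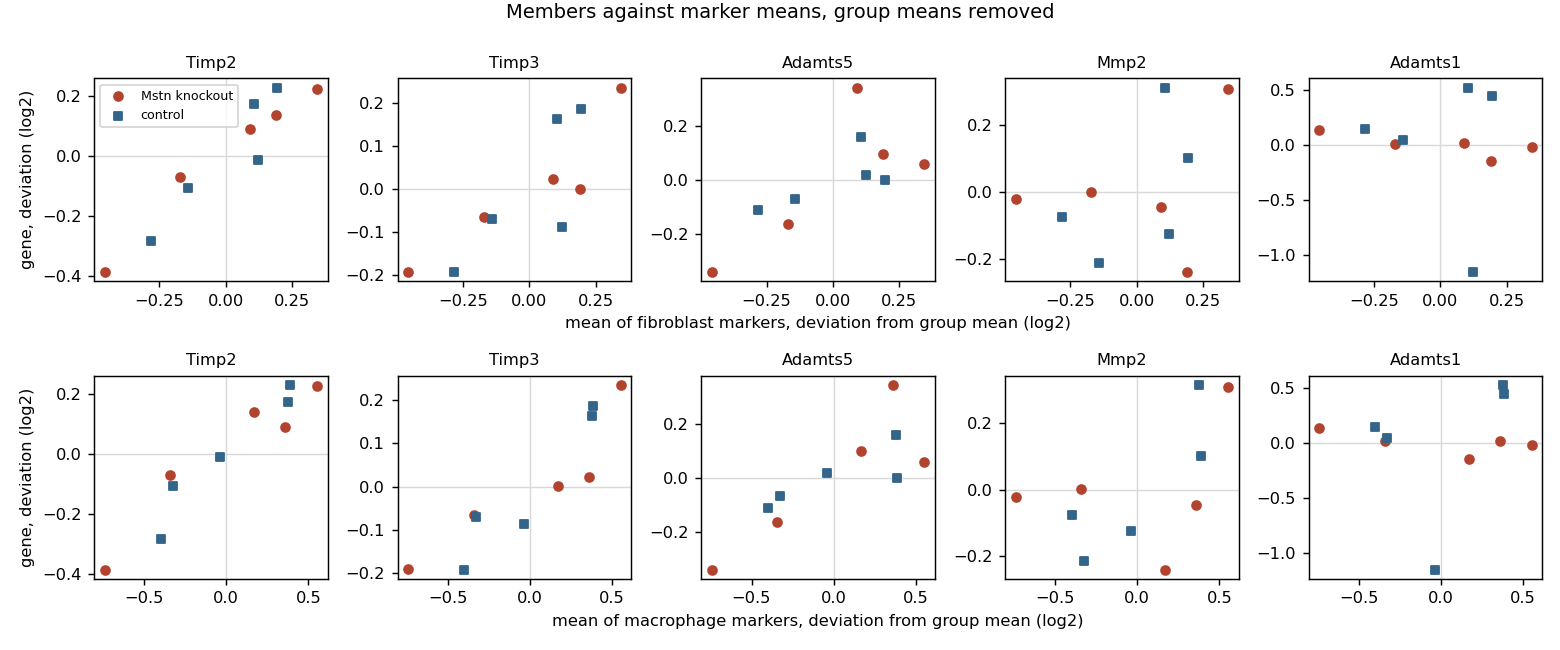
Deviation of each gene (vertical axis, log2) against the deviation of the mean of fibroblast markers (upper row) or macrophage markers (lower row, horizontal axis, log2), group means removed, 1 point per mouse, with knockouts as red circles and controls as blue squares. Points of Timp2 and Timp3 run along a rising line in both groups, with knockout 3 and control 2 at the low end, while those of Adamts1 do not, and control 3 stands apart at the bottom.

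Most genes of these marker lists had lower knockout means, where 51.5% of all genes did. The fibre markers used to check the tissue went the other way, with 1 of 10 lower and 9 higher in knockouts (median 0.04, log2). The array means of each list overlapped between the groups, and no list was tested as a whole. In bulk tissue fewer cells of a type and less RNA per cell cannot be told apart. Fibroblast markers (among them Pdgfra and Dpt, with Dcn and Lum shared with the substrate list) had lower values for 9 of 10 detected genes (median -0.38, log2), with a mean level of 8.95 to 9.75 in knockout and 9.46 to 9.94 in control mice. Macrophage markers (among them Csf1r and Adgre1) were lower for 11 of 11 (median -0.39), at 7.26 to 8.56 in knockout and 8.03 to 8.81 in control mice. Tendon markers (among them Tnmd and Scx) were lower for 9 of 9 (median -0.90), at 7.58 to 8.92 in knockout and 8.59 to 9.23 in control mice. Smooth muscle and pericyte markers were lower for 7 of 7 (median -0.36), at 8.86 to 9.26 in knockout and 9.17 to 9.53 in control mice, with Cnn1 below the filter. Endothelial markers were lower for 9 of 10 (median -0.21), at 8.20 to 8.41 in knockout and 8.26 to 8.64 in control mice. Schwann cell markers were lower for 4 of 4 (median -0.35), at 7.96 to 8.63 in knockout and 8.25 to 8.83 in control mice.

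Neutrophil markers had 2 detected genes, S100a8 (-1.33) and S100a9 (-1.36), both lower, at a mean level of 4.61 to 6.59 in knockout and 5.46 to 7.81 in control mice, with Ngp and Camp below the filter. Satellite cell markers were lower for 3 of 4 (median -0.23), at 6.48 to 6.91 in knockout and 6.71 to 7.10 in control mice. Adipocyte markers were lower for 2 of 4 (median 0.0036), at 8.20 to 9.97 in knockout and 9.05 to 9.63 in control mice, with Lep below the filter. None of these markers passed the adjusted threshold over all probe sets, where 0.131% of all genes did. Their part in the lower values of Mmp2, Timp2 and Adamts5 was not tested. The excess of 3' over 5' signal in the array's own controls grows as RNA is less intact. For Gapdh it was 0.45 ± 0.03 in knockout and 0.49 ± 0.03 in control arrays (log2, SD, n = 5 each). For beta-actin it was 1.40 ± 0.05 in knockout and 1.47 ± 0.06 in control arrays. The part of these differences was not tested either.

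None of the 5 detected members was related to the hybridisation controls past an adjusted p of 0.05 (permutation over 10 arrays, two-sided, adjusted over the 5 genes). Timp3 came nearest, with Pearson's r of -0.622 (permutation p = 0.0557, adjusted p = 0.278) and Spearman's rho of -0.503 (permutation p = 0.145, adjusted p = 0.448). Its r was -0.492 once the 2 arrays with the most extreme control signal were left out. For Mmp2 r was -0.419 and rho -0.467 (permutation p = 0.226 and 0.179, adjusted p = 0.316 and 0.448), and r was 0.042 without those 2 arrays. The other 3 genes had r between -0.459 and -0.252 (adjusted p between 0.316 and 0.481) and rho between -0.285 and -0.067 (adjusted p between 0.670 and 0.865). Without those 2 arrays r was -0.024 for Timp2, -0.638 for Adamts1 and 0.470 for Adamts5. Within the 5 arrays of a group, too few for a test here, r was -0.753 for Mmp2, -0.663 for Timp2, -0.814 for Timp3, 0.132 for Adamts1 and -0.446 for Adamts5 in knockouts. In controls it was -0.406 for Mmp2, -0.154 for Timp2, -0.371 for Timp3, -0.886 for Adamts1 and 0.156 for Adamts5. With the controls as a covariate the differences were -0.49 for Mmp2, -0.57 for Adamts5, -0.24 for Timp2, -0.03 for Timp3 and 0.02 for Adamts1.

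By the rule for likeness, the genes with the highest r of deviations from group means to Mmp2 over the 10 mice were Iqgap2, a scaffold protein of the cytoskeleton (0.961), Slc35e2 (0.923) and Acd, a telomere protein (0.915). For Timp2 they were Cd209f, a lectin-family gene (0.986), Arpc5, a subunit of the actin-branching complex (0.974), and Rarres2, which encodes the secreted adipokine chemerin (0.973). For Timp3 they were Upf1, an RNA helicase of nonsense-mediated decay (0.964), Rarres2 (0.962) and the cyclin gene Ccnd2 (0.958). Rarres2 was thus among the nearest 3 genes of both Timp2 and Timp3. For Adamts1 they were the ubiquitin-conjugating enzyme gene Ube2j2 (0.979), Ftsj3 (0.976) and Use1 (0.971). Control 3 weighs heavily in these r, since Adamts1 deviated there by -1.15 (log2) and by at most 0.52 in any other mouse. For Adamts5 they were Tgfbr3, a co-receptor for TGF-beta (0.953), F3, which encodes tissue factor (0.948), and Colgalt2, a collagen glycosyltransferase gene (0.937). These values are the highest among the 10704 kept genes once the members and genes with only a clone or locus name were left out. They are given as a description, and Acd and Colgalt2 lay near the filter level.

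Genes related to the members were drawn up as 5 lists of proteases, inhibitors and enhancers and 1 list of matrix substrates, also with earlier results of these data known. Of 127 listed genes, 115 were named by a probe set and 77 passed the filter. Of these 77, 58 had lower and 19 higher values in knockouts, with a median of -0.21 (log2), against -0.0049 over all 10704 genes and 51.5% of all genes with lower values. Without the 19 substrates, 39 of 58 had lower values. Past the adjusted threshold was 1 gene, Col1a2, a chain of type I collagen and so a substrate rather than a protease, where 0.131% of all genes passed. An unadjusted p under 0.05 was found for 20 of the 77, 12 of them substrates, where 8.90% of all genes had one.

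Among the other matrix metalloproteinases 11 of 16 were below the filter, including the collagenases Mmp8 and Mmp13, the stromelysins Mmp3 and Mmp10 and the macrophage elastase Mmp12. Of the 5 detected, 3 had lower values and none passed, nor did any have an unadjusted p under 0.05 (limma). Mmp23 averaged 7.51 ± 0.55 in knockouts and 8.02 ± 0.30 in controls (log2 intensity, SD, n = 5 each), a difference of -0.51 ± 0.26 (SE, adjusted p = 0.717). Mmp9, the gelatinase carried by neutrophils and macrophages, averaged 4.83 ± 0.82 in knockouts and 5.30 ± 0.83 in controls (adjusted p = 0.920), and its spread within each group exceeded that difference. Mmp19 (-0.24, adjusted p = 0.943) and the membrane-type Mmp24 (0.06, adjusted p = 0.986) did not pass.

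Of the other Adamts and Adamts-like genes, 9 of 10 detected had lower values (median -0.23, log2), where 51.5% of all genes did. None passed, and 1 had an unadjusted p under 0.05 (limma, 8.90% of all genes). That gene was Adamts9, an aggrecanase relative expressed in vessels, at 8.70 ± 0.13 in knockouts and 8.98 ± 0.21 in controls (SD, n = 5 each), a difference of -0.27 ± 0.11 (SE, adjusted p = 0.603). Adamts10, which binds fibrillin microfibrils, differed by -0.80 ± 0.41 (adjusted p = 0.722), Adamts12 by -0.57 ± 0.42 (adjusted p = 0.854) and Adamtsl3 by -0.42 ± 0.28 (adjusted p = 0.816). The Adam family holds membrane sheddases and also Adam22 and Adam23, which lack protease activity. It had a median of -0.0014 over 7 detected genes, 4 of them lower. None passed the threshold and 1, Adam22, had an unadjusted p under 0.05 (limma, 8.90% of all genes). Adam22 had -0.42 ± 0.14 (adjusted p = 0.483) and Adam15 -0.16 (adjusted p = 0.660), while the sheddases Adam9 (0.09, adjusted p = 0.913) and Adam17 (0.07, adjusted p = 0.954) lay close to 0.

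The other inhibitors and enhancers were divided, with 8 of 15 lower and 7 higher (median -0.02, log2). None passed the threshold and 2 had an unadjusted p under 0.05 (limma, 8.90% of all genes). Pcolce, an enhancer of procollagen processing, averaged 10.90 ± 0.23 in knockouts and 11.41 ± 0.14 in controls (SD, n = 5 each), a difference of -0.51 ± 0.12 (SE, adjusted p = 0.264). Its groups did not overlap, where 1.31% of all genes were lower without overlap. Serpinf1, a secreted serpin that limits vessel growth, differed by -0.60 ± 0.17 (adjusted p = 0.401) and Serping1, the inhibitor of complement C1, by -0.36 ± 0.16 (adjusted p = 0.668). Cst6, a cystatin that blocks legumain and cathepsins, was the only one of these without overlap in the higher direction, at 11.37 ± 0.07 in knockouts and 11.20 ± 0.14 in controls, but did not pass (0.17 ± 0.08, adjusted p = 0.694). Its lowest knockout, at 11.2843, lay barely above its highest control, at 11.2836, and control 3 was far below the other controls at 10.94. Of all kept probe sets, 2.06% had no overlap in either direction. Timp4, the remaining tissue inhibitor of the family and singled out after its values were seen, averaged 11.11 ± 0.20 in knockouts and 10.94 ± 0.25 in controls (SD, n = 5 each), a difference of 0.18 ± 0.14 (adjusted p = 0.865), opposite in sign to Timp2.

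The list of serine, cysteine and astacin proteases also held Ctsd, an aspartic protease, and Bsg, a membrane protein that is not a protease. Of its 21 detected genes 15 had lower values (median -0.21, log2). None passed and 4 had an unadjusted p under 0.05 (limma, 8.90% of all genes). Htra1, a secreted serine protease of matrix proteins, had the lowest p of the proteases, at 10.86 ± 0.13 in knockouts and 11.43 ± 0.20 in controls (SD, n = 5 each) without overlap. Its difference was -0.56 ± 0.11 (SE, adjusted p = 0.137), and its other kept probe set gave -0.65 without overlap (adjusted p = 0.231). Of all genes 1.31%, and of all kept probe sets 0.893%, were lower without overlap. Pcsk6, a proprotein convertase, differed by -0.60 ± 0.22 (adjusted p = 0.547), Bmp1, the procollagen C-proteinase, by -0.52 ± 0.22 (adjusted p = 0.621), and Ctsk, the collagen-cutting cathepsin K, by -0.54 ± 0.24 at a level near the filter (adjusted p = 0.646). The other kept Bmp1 probe set, 1427457_a_at, differed by only -0.15 ± 0.21 with overlapping groups (adjusted p = 0.961).

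All 19 detected substrates of these enzymes had lower values (median -0.31, log2), 6 of them without overlap (1.31% of all genes were lower without overlap), and 12 had an unadjusted p under 0.05 (8.90% of all genes). Col1a2 averaged 11.29 ± 0.22 in knockouts and 12.13 ± 0.17 in controls (SD, n = 5 each), 1.79-fold lower (adjusted p = 0.0494). Its call was lost in 9 of the 10 fits that left out 1 mouse and was kept only without knockout 5. Col1a1, the partner chain of type I collagen (-0.71 ± 0.13, adjusted p = 0.104), Sparc, a collagen-binding glycoprotein (-0.35 ± 0.07, adjusted p = 0.164), and Eln, elastin (-0.84 ± 0.22, adjusted p = 0.331), did not pass. Col1a1 passed on its other kept probe set, 1423669_at (-1.12, adjusted p = 0.0264), as did Col1a2 on its own, 1423110_at (-1.15, adjusted p = 0.0264). Neither call held without knockout 1, 2, 3 or 4 or without control 3, 4 or 5, where no probe set with lower knockout values passed. Of the proteoglycans that Adamts1 and Adamts5 cut, Acan, Bcan and Ncan were below the filter. Vcan, named after its values were seen, differed by -0.40 on its brightest probe set (adjusted p = 0.573). Its other kept probe sets differed by -0.01 (1427257_at) and 0.13 (1433043_at).

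**Figure D5:**
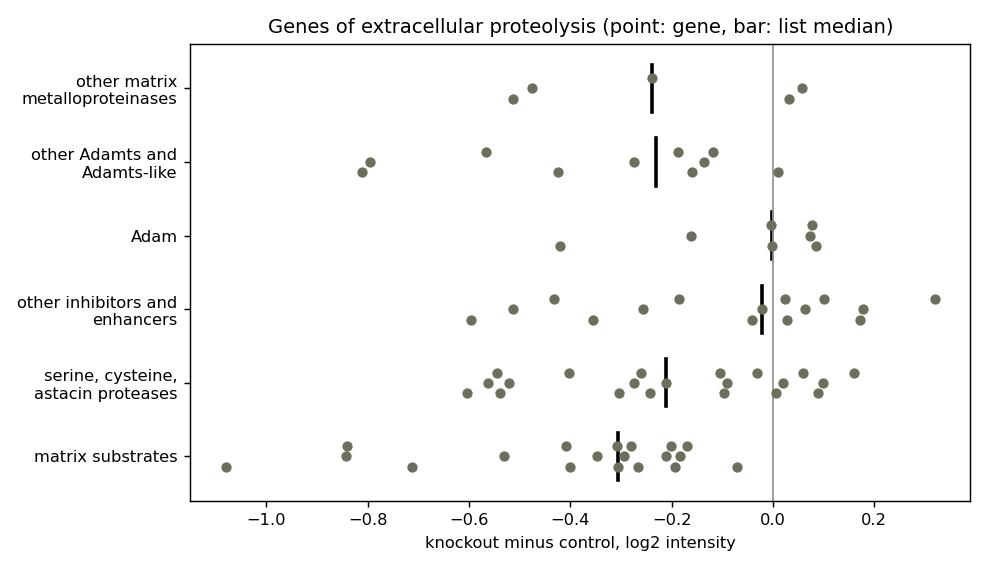
Difference between knockout and control means (log2 intensity, horizontal axis) for the 77 detected genes of the 6 lists, 1 point per gene by its brightest probe set, with the list median as a black bar. Matrix substrates lie wholly below 0 with a median of -0.31, while Adam genes and other inhibitors have medians of -0.0014 and -0.02.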

How the data were processed

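The deposited table holds a microarray intensity on a linear scale for 45101 probe sets on 10 arrays, and per the submitters' processing notes it was made with GCRMA, which corrects background from probe sequence, normalizes arrays and summarises probes. The sources used here give neither its version nor its settings. GCRMA holds dim probe sets near a floor and compresses their differences. The log2 was taken here with no other normalization.

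The platform annotation supplied the gene symbols (34958 with 1 symbol, 932 with several, 9211 not listed). Probe sets naming several genes or none were assigned to no gene, but those past the filter stayed in the fit and in the shares of all kept probe sets. No symbol changed on matching to the GRCm38.p6 gene table. Probe sets with a mean log2 of 4 or more were kept, without 64 array controls (21154, for 10704 genes). Differences and standard errors come from limma 3.58.1 in R 4.3.3 (lmFit, eBayes, two-sided, Benjamini-Hochberg over all kept probe sets, threshold 0.05). The brightest probe set represents a gene. Relations between mice used all 14400 permutations within groups in place of random ones, and those to the 7 hybridisation controls used 100000 permutations. With Mmp14 and Timp1 below the filter, 10 member pairs and 20 relations to marker means were run, and 5 relations to the controls. The fit was tested on simulated data.

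The members, gene lists and tests were chosen with earlier results of these data known. Named related genes are those past the threshold and the 4 of lowest p in each list, apart from those said to be chosen after their values were seen. For likeness, the 3 genes of highest r were taken for each detected member, leaving out the members and genes with only a clone or locus name. The replicate numbers do not mark a shared animal or batch in the labels. No arrays held identical values. Figures used matplotlib 3.10.9 in Python 3.11.15.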

Additional observations from a re-analysis of the deposited data

Results flagged for a closer look

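In 9 of 102 groups of 5 arrays tested (every member probe set, 6 marker means and the named related genes), 1 array lay far from the rest of its group, where chance gives about 1 in 20. For Adamts1, control 3 read 7.02 (log2 intensity), against 8.22 to 8.70 in the other controls. Cst6 was also low in control 3, at 10.94 against 11.23 to 11.28. Timp1 was high in control 2, at 4.53 against 3.28 to 3.63, and so was the Mmp14 probe set 1448383_at, at 3.92 against 3.25 to 3.43. Adamtsl3 was low in control 4, at 5.21 against 6.01 to 6.15. The other 4 were probe sets below the filter level, as were the Timp1 and Mmp14 probe sets just named. The Mmp14 probe set 1440920_at read 2.91 in control 5 (2.40 to 2.41 in the other controls) and 2.42 in knockout 5 (2.40 to 2.41 in the other knockouts). The Timp2 probe set 1420924_at read 2.10 in control 3 (2.08 to 2.09 in the others), and the Timp3 probe set 1419088_at read 2.71 in control 3 (2.97 to 3.05 in the others).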

How the results depend on the processing

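Over the 19 settings run for each gene, the difference (knockout minus control, log2) ran from -0.59 to -0.43 for Mmp2, from -0.67 to -0.38 for Adamts5, from -0.33 to -0.16 for Timp2 and from -0.11 to -0.0033 for Timp3, while Adamts1 ran from -0.30 to 0.12 and so changed sign. No member probe set passed under any setting run, and of the 14 kept between 12 and 14 had lower values (19 of 21 with no filter). The count of all probe sets past the threshold, 21, became 11 with no filter, 36 after quantile normalization, 58 with a variance trend and robust fit, 67 with array weights, 99 with the hybridisation controls as a covariate and 5 without the 3 arrays of highest controls. Leaving out single arrays gave between 1 and 17. With the replicate number as a block the count was 1, no member and 0 related genes passed, and the correlation of deviations between the knockout and control array sharing a number was -0.51, 0.13, 0.62, -0.20 and 0.19, with 1 of 5 controls and 1 of 5 knockouts matching their own number best. The count of related genes, 1, became 0 with no filter, 0 without those 3 arrays, 4 with a variance trend and robust fit, 2 with any kept probe set per gene, and 0 to 1 with each array left out. The 6 within-group relations past the threshold became 5 with the controls regressed out and 3 to 8 with each array left out, with 3 without knockout 3. No relation to the controls passed with any array left out. The cause of these changes was not tested. Signal over background limits Mmp14 and Timp1.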
